A study of Bos taurus with 86 samples.

Results

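CD59, also called protectin, was measured in 43 single bovine embryos on 2-colour cDNA arrays. The gene was chosen by its group levels in these same embryos, low in 1 of the 3 groups, so its levels and group differences are a description here and carry no test. It was found as the rows whose only gene symbol in the platform annotation is CD59 (NCBI gene ID 505574). These are 2 of the 16416 rows of the table, they carry 1 cDNA clone, and they make up 1 of the 3433 named genes that could be compared. The groups are AI with 14 embryos, taken to mean artificial insemination, IVF with 15, taken to mean fertilization in vitro, and IVD with 14, an abbreviation that the labels leave unexplained and that serves only as a name. By its title, the study is about how maturing, fertilizing and culturing in vitro change the profile of an embryo, and these steps cannot be told apart in the comparison of IVF with AI. The sources used here give neither breed nor sex, age or developmental stage of the embryos. RNA of each embryo went on 2 arrays with a common reference RNA, labelled the opposite way round on the second, which gives 86 arrays. Embryo RNA had been amplified in 3 rounds and reference RNA in 2 rounds in all groups.

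CD59 is a small glycoprotein of the cell surface, held in the outer leaflet of the membrane by a glycosylphosphatidylinositol (GPI) anchor. It binds the late complement components C8 and C9 while the membrane attack complex forms and stops the pore from being completed, so that cells are spared by their own complement. Its fold is that of the Ly6 and urokinase receptor family. The early embryo and the trophoblast are exposed to maternal fluids that contain complement, and CD59 is one of several inhibitors known on their surface, beside CD46 and CD55.

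All values are log2 ratios, centred on the median of each array over the rows that all arrays measured, averaged over both dyes, and read as embryo over reference. The labels do not say which dye is the numerator. Cy5 over Cy3 was taken as likely because trophectoderm markers then lie above the reference (median 2.05 over 17 genes, 14 of them above 0) and blood and immune markers below it (median -1.13 over 2 genes, CD8A and CD14, none above 0). Of these 2, CD14 lay close to the reference (-0.26 in AI, -0.22 in IVD and -0.08 in IVF). CD48, a lymphocyte receptor outside that list, then lies above the reference (2.86 in AI, 3.54 in IVD and 1.70 in IVF). In the opposite direction the signs of all levels and of all differences in level given here would turn, but not those of correlations between genes. In whole embryos, fewer cells that express a gene and less RNA of it per cell cannot be told apart.

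After centring, CD59 lay above the reference in every AI and every IVD embryo and on both sides of it in IVF. Without centring, 2 AI embryos were below 0, AI 14 at -0.08 and AI 17 at -0.35. In AI the embryo values ran from 0.28 through a median of 1.76 to 2.13 on the log2 scale, with a mean of 1.55 ± 0.57 (SD, n = 14). In IVD they ran from 1.30 through a median of 2.03 to 2.74, with a mean of 1.96 ± 0.41 (SD, n = 14). In IVF they ran from -2.01 through a median of 0.02 to 0.63, with a mean of -0.25 ± 0.67 (SD, n = 15). All 14 AI and all 14 IVD embryos were above 0, against 8 of 15 IVF embryos. On the linear scale, the mean log2 values correspond to 2.92 times the reference in AI, 3.90 times in IVD and 0.843 times in IVF.

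**Figure D1:**
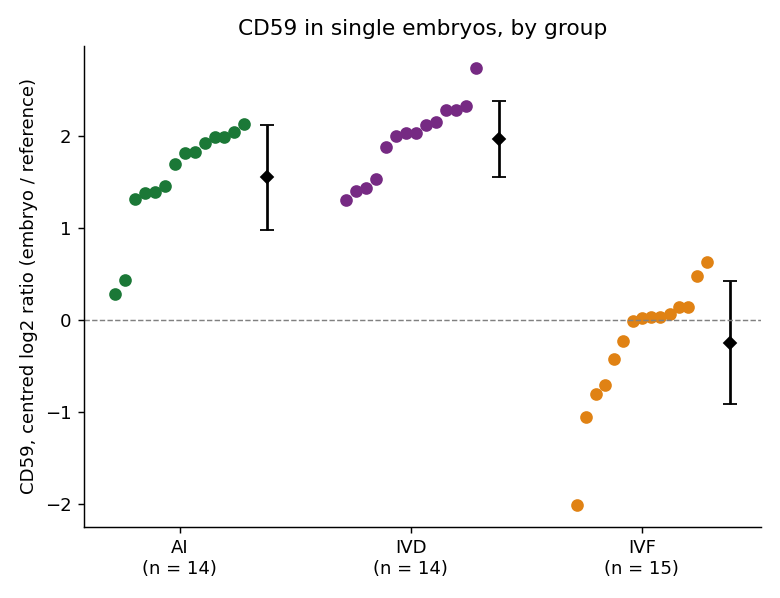
CD59 in each embryo as a centred log2 ratio of embryo over reference, with embryos sorted by value within their group; the black diamond and bar are the group mean and SD. The 15 IVF embryos lie below all 14 IVD embryos, and 2 AI embryos lie among the highest IVF embryos.

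The IVF mean was lower than the AI mean by 1.79 ± 0.20 (SE) on the log2 scale, a 3.47-fold difference of geometric means. It was lower than the IVD mean by 2.21 ± 0.20, or 4.63-fold. IVD was higher than AI by 0.42 ± 0.21, a value that was 0.67 with the deposited values uncentred and 0.22 without 7 embryos whose embryo-in-Cy5 array had a low median. Among the 3433 named genes, CD59 held place 4 from the lowest for the difference between IVF and AI and place 2 from the lowest for that between IVF and IVD, whereas it was place 781 from the highest for IVD against AI. The comparisons share their groups of embryos and are not separate evidence for each other.

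The IVF and IVD groups did not overlap. The lowest IVD embryo, IVD 12_1 at 1.30, was 0.67 above the highest IVF embryo, IVF 12 at 0.63. Of all features tested, 1.78% had every IVF embryo below every IVD embryo, and CD59 is one of these by the way it was chosen. The IVF and AI groups overlapped through a few embryos: 13 of 15 IVF embryos were under all AI embryos, and IVF 5 (0.48) and IVF 12 (0.63) were above both AI 17 (0.28) and AI 14 (0.43). The next AI embryo, AI 8, was at 1.31. A complete separation of IVF below AI was found for 0.382% of features. The AI and IVD ranges overlapped, with 5 IVD embryos above the highest AI embryo and 2 AI embryos below the lowest IVD embryo.

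Within IVF, 7 embryos were close to the reference, between -0.01 (IVF 4) and 0.14 (IVF 13 and IVF 16). Below them lay IVF 10 at -0.23, IVF 1 at -0.42, IVF 2 at -0.70, IVF 18 at -0.80 and IVF 3 at -1.06. IVF 19 was lowest at -2.01. After centring, the low IVF mean thus combines embryos near the reference with a tail of lower ones. This shape depends on the centring. Without it, 13 of 15 IVF embryos were below 0, with a median of -0.46. The 7 embryos then ran from -1.12 (IVF 11) to 0.28 (IVF 16). In AI, 12 embryos lay between 1.31 and 2.13, and AI 14 and AI 17 stood 0.88 or more below them. Embryos labelled H1, H3 and H5 in AI were alike, at 1.92, 1.99 and 2.04. In IVD, the embryos numbered 12_1 to 12_4, whose relation to each other the labels do not state, were at 1.30, 1.43, 1.54 and 2.03, a mean of 1.57 ± 0.32 (SD, n = 4) against 2.12 ± 0.35 (SD, n = 10) in the other IVD embryos.

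The array with the embryo in Cy5 set AI 14 and AI 17 apart from the other AI embryos as well. Before centring, the median log2 ratio of that array was under -1 in 7 embryos, AI 14, AI 17 and IVF 6, 7, 9, 10 and 11, and this division was chosen after the values had been seen. In these, CD59 averaged 0.36 in AI (n = 2) and -0.02 in IVF (n = 5), a difference of -0.38. In the others it averaged 1.75 in AI (n = 12) and -0.36 in IVF (n = 10), a difference of -2.11. With the division as a block the difference was -1.75. The difference between IVF and AI was thus present on both sides of the division and far smaller among the 7 embryos, where AI has 2 embryos. Of the IVF embryos close to the reference after centring, IVF 6, 7, 9 and 11 are among these 7 embryos. The part of array quality in the low values of AI 14 and AI 17, and in the values of these IVF embryos, was not tested.

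**Figure D2:**
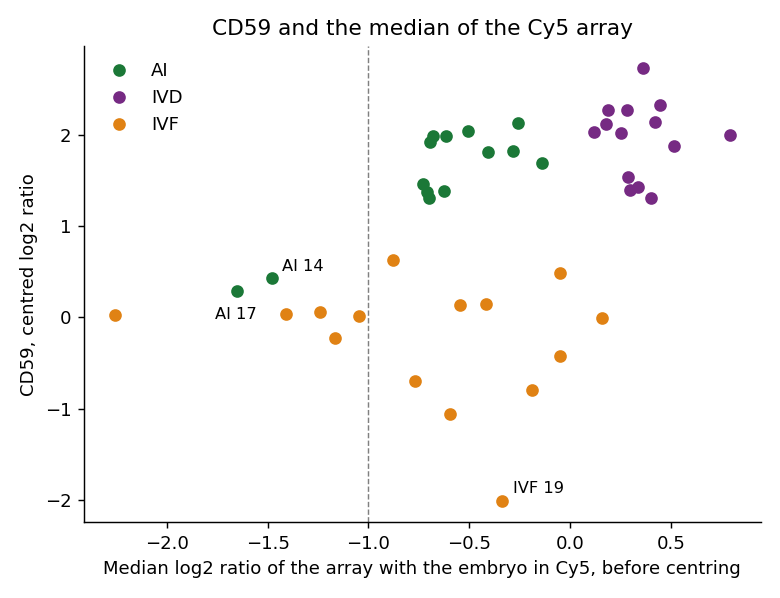
CD59 (centred log2 ratio, vertical) against the median log2 ratio, before centring, of the array with the embryo in Cy5 (horizontal), 1 point per embryo; the dashed line marks -1. Left of the line lie AI 14, AI 17 and 5 IVF embryos, and to its right 12 AI embryos lie between 1.31 and 2.13, above all 10 IVF embryos there.

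AI 14 and AI 17 were not low in all genes that are low in IVF. This was counted over 755 features measured in every embryo and called lower in IVF than in AI. AI 14 was on the IVF side of the midpoint between the group means in 24.2% and AI 17 in 25.6%. The other AI embryos ran from 11.5% to 27.0%, and of them only AI 15 (27.0%) was above AI 14 and AI 17. The features and midpoints were taken from these same embryos. IVF 5 and IVF 12, the highest IVF embryos for CD59, remained below the midpoint of CD59 itself, which was 0.65.

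Both dyes gave the same picture. With the embryo in Cy3 and the sign turned, the means were 1.46 ± 0.58 in AI, 1.83 ± 0.42 in IVD and -0.36 ± 0.66 in IVF (SD). With the embryo in Cy5 they were 1.63 ± 0.59, 2.10 ± 0.42 and -0.13 ± 0.71. The values of an embryo's 2 arrays correlated at r = 0.979 over the 43 embryos, and at 0.914 within AI, 0.978 within IVD and 0.904 within IVF. They differed by a median of 0.292, and by 0.745 at most (IVF 7). All AI and IVD embryos were above 0 with both dyes, whereas 4 IVF embryos were above 0 with both, 5 were below 0 with both, and the other 6 changed sign with the dye.

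**Figure D3:**
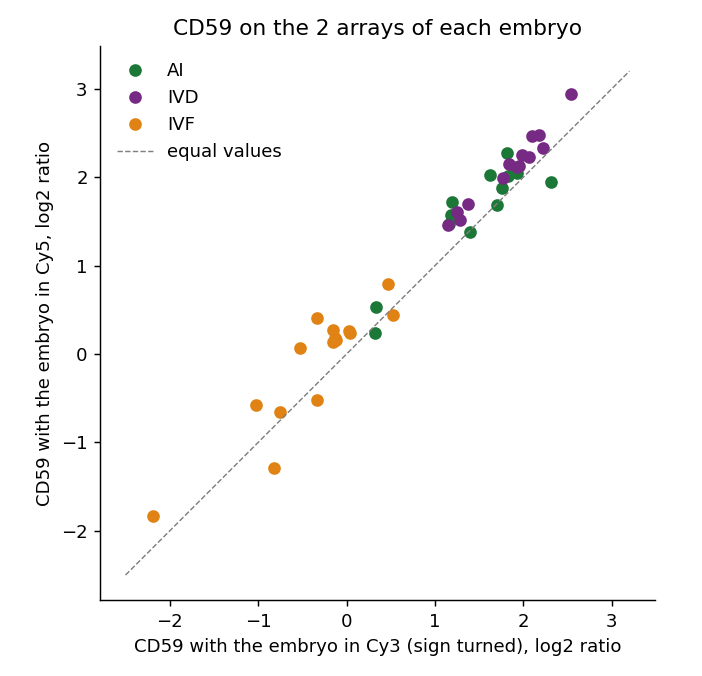
CD59 on the array with the embryo in Cy5 (vertical, centred log2 ratio) against the array with the embryo in Cy3 after turning its sign (horizontal), 1 point per embryo; the dashed line marks equal values. The points follow the line (r = 0.979, n = 43), mostly just above it, and the IVF embryos lie at the lower left.

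The reversal with the dye was also present in the deposited values before turning or centring. On arrays with the embryo in Cy5 the medians were 1.35 in AI, 2.47 in IVD and -0.892 in IVF. On arrays with the embryo in Cy3 they were -1.57, -1.55 and 0.158. AI and IVD thus changed sign with the dye together, and IVF lay on the other side of 0 from them on both sets of arrays. By count, 12 of 14 AI, 14 of 14 IVD and 2 of 15 IVF arrays with the embryo in Cy5 were above 0, as were none of the AI and IVD arrays and 11 of 15 IVF arrays with the embryo in Cy3.

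The dye difference was not shown to differ between the groups. Values with the embryo in Cy5 exceeded those with it in Cy3 by a mean of 0.17 in AI, 0.27 in IVD and 0.24 in IVF, in 10 of 14, 14 of 14 and 12 of 15 embryos. The adjusted permutation p-values of the 3 pairs (two-sided) were 0.564 for IVD against AI and 0.741 for both others. This depends on the centring: with each array centred on the median of all its measured rows, the dye difference was larger in IVD than in AI by 0.76 and than in IVF by 0.82 (adjusted permutation p = 1.5e-05 for both).

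The clone's 2 rows were measured in all 172 cells and gave nearly the same values. The group means were 1.56 in AI, 1.96 in IVD and -0.23 in IVF on the first row and 1.53, 1.97 and -0.26 on the second. They correlated at r = 0.994 over the 86 arrays, and per embryo they differed by a median of 0.0475 and by 0.328 at most (AI 15). Since both rows carry the same clone, they are no independent check of the gene's identity.

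The spread of CD59 between embryos was set beside that of all features. Its SD exceeded that of 81.1% of the 3711 features measured in every embryo in AI, of 68.5% in IVD and of 89.1% in IVF. In AI the SD of CD59 rested on AI 14 and AI 17: it was 0.29 over the other 12 embryos. The median SD of all features in AI, 0.37, includes all 14 embryos, so the 2 values cannot be set against each other. The spread was not shown to differ between groups: the mean distance from the group median was 0.41 in AI, 0.31 in IVD and 0.45 in IVF, with adjusted permutation p-values (two-sided, 3 pairs) of 0.845 for IVF against AI and 0.716 for both others.

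The groups also differed in how completely the arrays were measured. As means of both arrays, 3613 to 5713 rows had no value in an AI embryo, 3076.5 to 5099.5 in an IVF embryo and 1001.5 to 1871.5 in an IVD embryo. An embryo's arrays correlated at 0.816 to 0.912 in AI, at 0.717 to 0.911 in IVF and at 0.589 to 0.767 in IVD. IVD stands apart from AI on both measures, so a technical difference of the IVD arrays cannot be told apart from the group. Within groups, 6 relations of CD59 with these measures were tested. Pearson r lay between -0.314 and 0.221 (adjusted permutation p = 0.786 for each, over 14 or 15 embryos), and Spearman rho between -0.314 and 0.214 (adjusted permutation p = 0.661 to 0.809). Without the 2 embryos farthest from the median of each measure, r lay between -0.274 and 0.583, the highest being that with the array correlation in IVF (0.112 with all 15 embryos).

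Markers of other cell types were compared beside CD59. Of 4 measured cumulus and granulosa cell genes, 3 were higher in IVF than in AI (CYP19A1, HSD3B1 and CYP11A1, limma adjusted p under 0.05). Over all features, 19.9% were higher and 17.7% lower in IVF than in AI at that threshold. In IVD against AI, 1 of the 4 was higher, CYP11A1 by 0.40. The median of these 4 genes per embryo ran from -0.753 to 0.0201 in AI, -0.324 to 0.26 in IVF and -0.409 to 0.171 in IVD. The trophectoderm median ran from 1.49 to 2.55 in AI, 1.19 to 2.11 in IVF and 0.749 to 2.50 in IVD, with 1 of 17 genes higher and 5 lower in IVF than in AI. KLF4, the single measured gene of the inner cell mass list, averaged 1.82 in AI, 2.43 in IVD and 1.36 in IVF. No marker of blood cells or of oviduct and endometrium (MSX1) passed the threshold between IVF and AI. The part of the cumulus or inner cell mass markers in the CD59 values was not tested.

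The other genes of the pathway were compared with limma, a linear model test for arrays, at a Benjamini-Hochberg adjusted p under 0.05 over all 6278 features. At that threshold, calls were common over all features. Between IVF and AI 37.7% were called (19.9% higher and 17.7% lower in IVF). IVD and AI differed in 46.5% (25.5% higher and 21% lower in IVD), and IVF and IVD in 47.6% (22.3% higher and 25.2% lower in IVF). The lists for complement, GPI anchors, the Ly6 family and membrane rafts held 30 tested genes beside CD59. Of these 30, 4 were higher and 8 lower in IVF than in AI, 4 were higher and 12 lower in IVD than in AI, and 6 were higher and 7 lower in IVF than in IVD.

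Of the complement regulators, 1 could be tested beside CD59; CD46 and CD55 were not among the measured named genes. This was SERPING1, the C1 inhibitor, which blocks the proteases that start the classical pathway. AI embryos ran from 0.41 to 1.86, IVD embryos from 1.17 to 2.16 and IVF embryos from 0.89 to 1.97, and all 3 ranges overlapped. SERPING1 was higher in IVD than in AI by 0.70 ± 0.13 (SE, limma adjusted p = 2.22e-05) and lower in IVF than in IVD by 0.42 ± 0.13 (adjusted p = 0.00599). The latter call was lost with quantile normalization and with the embryo-in-Cy5 arrays alone. Between IVF and AI the difference was 0.27 ± 0.13 (adjusted p = 0.084). SERPING1 thus did not pass the threshold in the comparison of IVF with AI, and its value there had the opposite sign to that of CD59.

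Complement components showed small differences. Of 7 measured, 1 rose and 1 fell in IVF against AI, beside 19.9% and 17.7% of all features. The list median was -0.148, against 0.0406 over all features. CFD, factor D of the alternative pathway, exceeded its AI mean in IVF by 0.38 ± 0.12 (limma adjusted p = 0.0128), though not with the embryo-in-Cy3 arrays alone or without centring. C1QB, a chain of C1q, was lower by 0.30 ± 0.11 (adjusted p = 0.0342). The sign of C1QB turned to 0.063 with the embryo-in-Cy5 arrays alone, and its call was lost in 5 of 12 alternatives. Its second clone was measured in at most 2 IVF embryos per row and had the opposite sign there.

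C1R and C1S, the proteases of the C1 complex, were lower in IVF than in IVD by 0.59 ± 0.25 (limma adjusted p = 0.0466) and 0.70 ± 0.28 (adjusted p = 0.0367). Quantile normalization and the embryo-in-Cy5 arrays alone each ended both calls, and on the latter arrays C1R turned to 0.41. The rows of C1R gave -0.67 and -0.15. Against AI, IVD embryos were higher for ITGB2, the beta chain of complement receptors of leukocytes, by 0.29 (adjusted p = 0.0356) and lower for the component C4A by 0.31 (adjusted p = 0.014). ITGB2 was at 0.089 with the embryo-in-Cy3 arrays alone and lost its call in 5 of 13 alternatives, and C4A was at -0.054 without centring. C1QA did not pass the threshold in any comparison. Components of the membrane attack complex, the step at which CD59 acts, were not among the named genes tested.

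**Figure D4:**
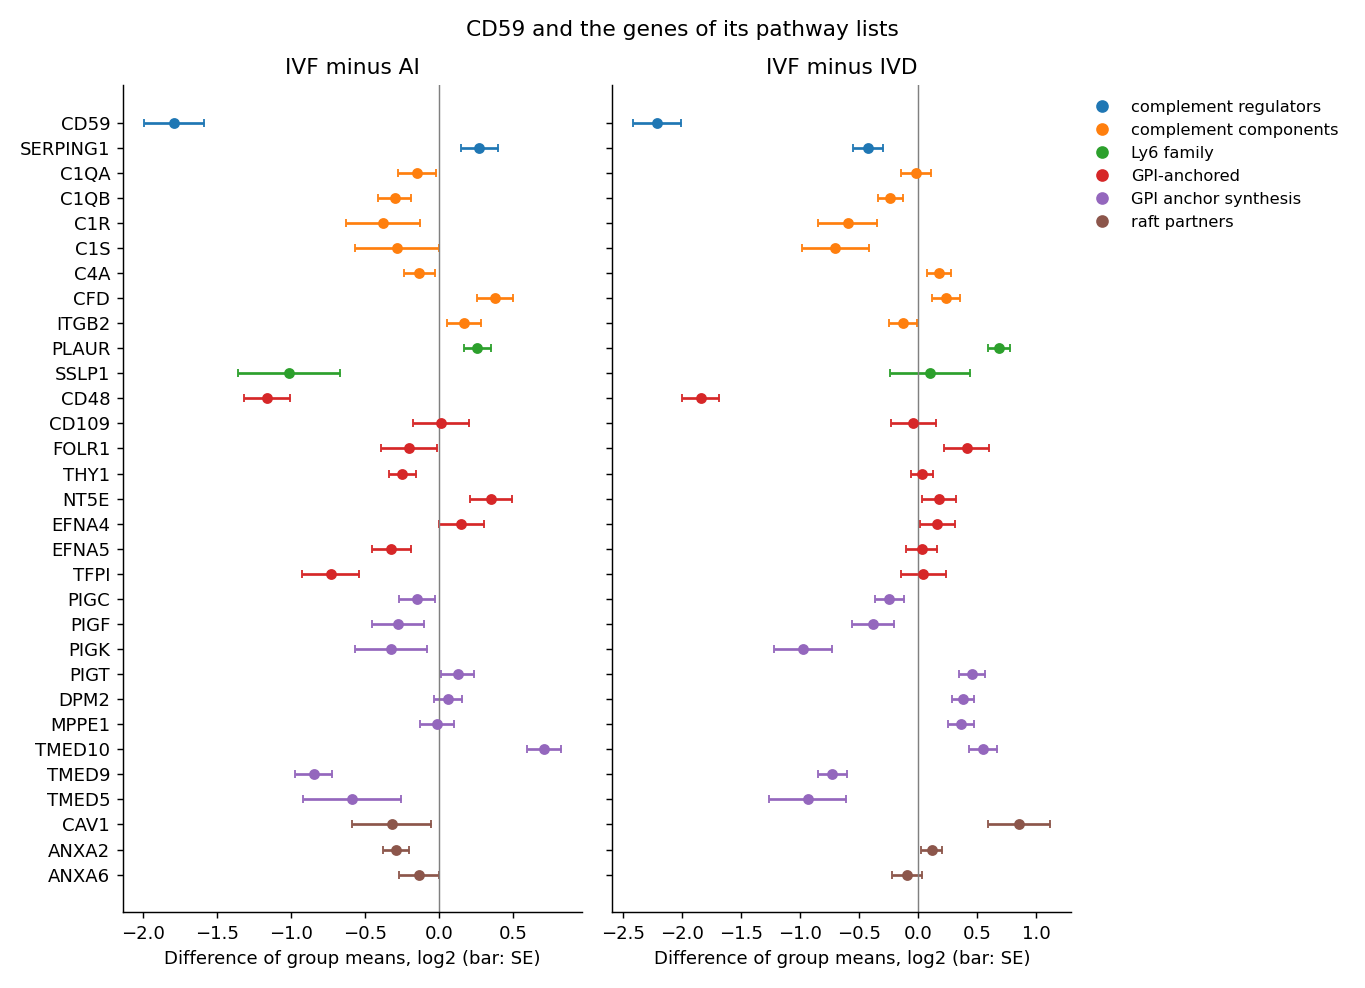
Differences of group means (log2, points) with their SE (bars) for CD59 and the 30 tested genes of the lists for complement, the Ly6 family, GPI-anchored proteins, GPI anchor synthesis and raft partners, IVF minus AI on the left and IVF minus IVD on the right. CD59 (-1.79 and -2.21) and CD48 (-1.16 and -1.84) lie furthest below 0 in both panels; CD59 was chosen for this.

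Of the Ly6 and urokinase receptor family, 2 relatives of CD59 could be tested, and they moved in opposite directions in IVF. PLAUR, the urokinase receptor, was higher in IVF than in AI by 0.26 (limma adjusted p = 0.0204) and than in IVD by 0.69 (adjusted p = 3.6e-08), and lower in IVD than in AI by 0.43 (adjusted p = 0.000216). The difference between IVF and AI was 0.075 with the embryo-in-Cy3 arrays alone. SSLP1, a Ly6-type protein that is also on the trophectoderm list, was lower than in AI by 1.01 ± 0.35 in IVF (adjusted p = 0.0191) and by 1.12 in IVD (adjusted p = 0.00776). The call of SSLP1 in IVF against AI was lost with the embryo-in-Cy5 arrays alone (-0.69) and without the 7 embryos of low Cy5 array median (-0.83). Between IVF and IVD, SSLP1 differed by 0.10 (adjusted p = 0.825), unlike CD59 in its values.

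Among 8 other GPI-anchored surface proteins, 1 rose and 4 fell in IVF against AI, beside 19.9% and 17.7% of all features. The list median was -0.224, against 0.0406 over all features. CD48, a surface receptor best known from lymphocytes, was by size the nearest to CD59. It ran from 2.12 through a median of 2.80 to 3.55 in AI, from 3.07 through 3.45 to 4.08 in IVD, and from 1.06 through 1.67 to 2.43 in IVF. Of the 15 IVF embryos, 10 were under all AI embryos and 15 under all IVD embryos. Over all features, 1.78% had every IVF embryo below every IVD embryo. CD48 was lower in IVF than in AI by 1.16 ± 0.16 (SE, limma adjusted p = 3.03e-07) and than in IVD by 1.84 (adjusted p = 1.05e-12), and higher in IVD than in AI by 0.68 (adjusted p = 0.000671). Its 4 rows carry 2 clones, and all 4 rows gave the same direction. Both calls on IVF kept their side of the threshold in all 13 alternatives.

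CD48 and CD59 correlated at r = 0.775 over the 43 embryos, but at 0.101 once group means were taken out, and at 0.296 within AI, -0.087 within IVD and 0.061 within IVF. The correlation was thus larger over all embryos than within any group. IVF 19, the lowest embryo for CD59, held place 6 from the lowest of 15 for CD48, at 1.34.

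**Figure D5:**
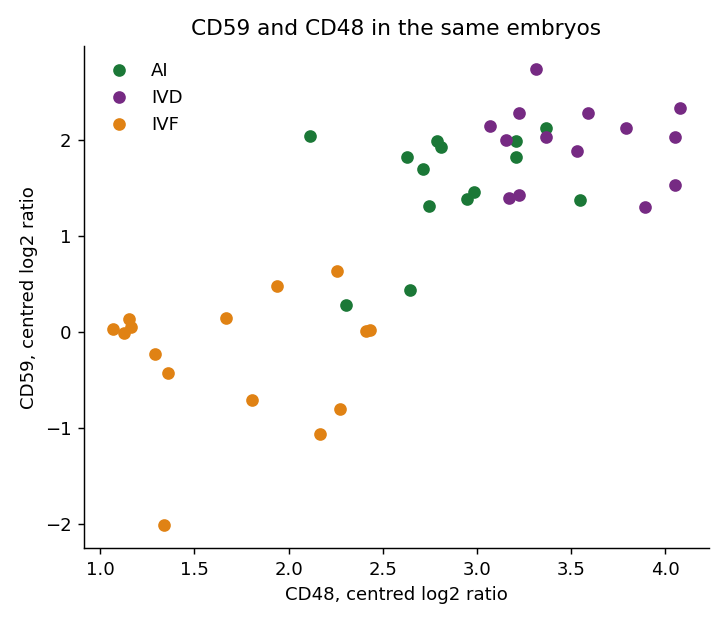
CD59 (vertical) against CD48 (horizontal), centred log2 ratios, 1 point per embryo, coloured by group. The IVF embryos lie at the lower left of the IVD embryos on both axes, and within each group the points show little relation (r between -0.087 and 0.296).

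The other calls of this list were smaller. TFPI, an inhibitor of tissue factor of which a form is GPI-anchored, was lower in IVF than in AI by 0.73 ± 0.19 (limma adjusted p = 0.00273) and in IVD than in AI by 0.78, and differed by 0.05 between IVF and IVD. NT5E, the nucleotidase that makes adenosine at the cell surface, was higher in IVF than in AI by 0.35 (adjusted p = 0.0494), a value that turned to -0.025 with the embryo-in-Cy3 arrays alone. EFNA5, an ephrin, was lower by 0.32 (adjusted p = 0.0491) and THY1 by 0.25 (adjusted p = 0.0303), and each lost its call in several alternatives. In IVD against AI, CD48 was higher and FOLR1, THY1, EFNA5 and TFPI were lower, and in IVF against IVD only CD48 passed the threshold. With the embryo-in-Cy3 arrays alone the calls of FOLR1 (-0.16), THY1 (-0.12) and EFNA5 (0.0042) in IVD against AI were lost, as they were without centring.

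Genes that make, attach or carry GPI anchors went both ways. Of 9 measured, 1 rose and 1 fell in IVF against AI, beside 19.9% and 17.7% of all features. Both are cargo receptors that move GPI-anchored proteins out of the endoplasmic reticulum. TMED10 was higher by 0.71 (limma adjusted p = 7.1e-06) and TMED9 lower by 0.85 (adjusted p = 1.07e-06). The 2 clones of TMED9 gave the same sign and unequal sizes, -0.53 and -0.46 on the rows of the first clone and -1.24 and -1.16 on those of the second. Against IVD, 4 genes were higher in IVF (PIGT, DPM2, MPPE1 and TMED10) and 3 lower (PIGK, TMED9 and TMED5). Over all features, 22.3% were higher and 25.2% lower in IVF than in IVD. In that comparison the first clone of TMED9 gave -0.15 and -0.11 and the second -1.35 and -1.30. The call of TMED5 was lost with the embryo-in-Cy5 arrays alone (-0.65), and that of TMED10 without centring (0.31). PIGK, the catalytic subunit of the transamidase that attaches the anchor, was lower in IVF than in IVD by 0.98, and PIGT, another subunit of it, was higher by 0.46. In IVD against AI, PIGK was higher and PIGT, DPM2 and MPPE1 were lower. The calls of PIGT, DPM2 and MPPE1, against AI and against IVF, were lost without centring and with the embryo-in-Cy3 arrays alone. The clones of DPM2 disagreed: in IVF against IVD the rows of one gave 0.046 and -0.028 and those of the other 0.73 and 0.77, and in IVF against AI they gave -0.14 and -0.18, and 0.28 and 0.28. THY1, FOLR1, PIGT, DPM2, MPPE1, PIGK, TMED5 and CAV1 are named after their values had been seen.

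Of 3 measured raft partners, ANXA2, a membrane-binding annexin, was lower in IVF than in AI by 0.29 (limma adjusted p = 0.00862), and no other passed the threshold there. This call was lost without centring and with the embryo-in-Cy5 arrays alone. CAV1, the coat protein of caveolae, was lower in IVD than in AI by 1.18 and higher in IVF than in IVD by 0.86. The latter call was lost without centring and with quantile normalization. CAV1 lay far below the reference, with means of -4.24 in AI, -5.41 in IVD and -4.56 in IVF.

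The combination of low values in IVF against both other groups is shared by many features. Of all features, 9.68% were called lower in IVF than in AI and than in IVD. Among named genes, 37 were lower by at least 1 on the log2 scale in both, and 8 by at least 1.5: CD59, EIF4A1, GAR1, LARP7, MPHOSPH8, PABPN1, SH3BGRL and ZCCHC17.

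The genes with values most like CD59 across embryos were found by Pearson r over at least 36 shared embryos, among 3242 named genes. The median r was -0.00283 and the 95th percentile 0.632. The highest were ZCRB1, an RNA-binding protein of the minor spliceosome (0.861), PAIP2, which binds poly(A)-binding protein (0.828), ZCCHC17 (0.827), the initiation helicase EIF4A1 (0.825), the histone variant H2AZ1 (0.823), GAR1 of small nucleolar ribonucleoproteins (0.816), the 7SK RNA-binding protein LARP7 (0.806) and the copper chaperone COX17 (0.802). All 43 embryos entered for each. These embryos share their groups, and all 8 genes had a lower mean in IVF than in both other groups.

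With group means taken out, the likeness of these 8 genes fell to between 0.196 (H2AZ1) and 0.430 (PAIP2 and COX17). ZCRB1, the most alike, averaged 1.80 ± 0.43 in IVD and 0.02 ± 0.49 in IVF (SD), and its IVF mean lay 1.48 below its AI mean. Its r with CD59 was 0.104 within AI, 0.499 within IVD and 0.562 within IVF. AI 14 and AI 17, which hold the lowest places of AI for CD59, held places 9 and 6 of 14 for ZCRB1, at 1.56 and 1.35.

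Other genes followed CD59 within the groups. By r of deviations from the group means, the highest were EIF4A3 of the exon junction complex (0.634), the RNA-binding protein RBPMS (0.620, 42 embryos), the mitochondrial adenylate kinase AK4 (0.597), fibronectin FN1 (0.581) and the phosphatase subunit PPP1R16A (0.580), against a median of -0.00574 and a 95th percentile of 0.331. FN1 and PPP1R16A correlated with each other at 0.977 over 43 embryos. AI 14 and AI 17 were the lowest AI embryos for CD59, EIF4A3, AK4, FN1 and PPP1R16A, so that the r within AI of these 4 other genes, 0.756 to 0.852, includes these embryos. In IVF, where neither of these embryos enters, r was 0.521 for EIF4A3, 0.650 for AK4, 0.340 for FN1 and 0.360 for PPP1R16A. These r include IVF 19, the lowest IVF embryo for CD59 at -2.01. It held place 3 from the lowest for EIF4A3, 1 for AK4, 2 for FN1 and 2 for PPP1R16A.

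The genes around CD59 in the RefSeq gene order of assembly ARS-UCD2.0 were given for comparison, as the nearest 5 measured protein-coding genes on each side. Before it lie EIF3M, IMMP1L, DNAJC24, LIN7C and RPS3, at places 12, 18, 19, 31 and 64 among the protein-coding genes. After it lie FBXO3, which is the next gene, CAPRIN1, CAT, APIP and CD44, at places 1, 3, 6, 9 and 11. Between IVF and AI the differences of these 10 genes ran from -0.869 to 0.407 with a median of -0.0793, against -1.79 for CD59. Of the 10, 3 were called lower and 2 higher in IVF, beside 17.7% and 19.9% of all features. FBXO3, a ubiquitin ligase subunit, was lower in IVF by 0.59 ± 0.20 (limma adjusted p = 0.0164), EIF3M, a translation initiation factor subunit, by 0.61 (adjusted p = 0.0149) and the ribosomal protein RPS3 by 0.87 (adjusted p = 2.11e-07). LIN7C (0.41) and the hyaluronan receptor CD44 (0.31) were higher, and CD44 turned to -0.020 with the embryo-in-Cy3 arrays alone. The call of FBXO3 was lost without centring and without AI embryos H1, H3 and H5, that of EIF3M with the embryo-in-Cy5 arrays alone, and that of LIN7C in 5 of 13 alternatives. Between IVF and IVD, EIF3M, CAPRIN1 and APIP were lower, none was higher, and FBXO3 differed by -0.31 (limma adjusted p = 0.198). Of all features, 25.2% were lower and 22.3% higher in IVF than in IVD.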

How the data were processed

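The authors deposited log2 ratios of 16416 rows on 86 arrays. Per the labels' protocols, RNA was linearly amplified, labelled through amino-allyl cDNA and hybridised with dye swap. For image analysis, background correction, normalization of the ratios and the leaving out of spots, the sources used here give no method. Missing cells were 20.1%, among them 16 spots at a common ceiling. No intensities were used, and the number of arrays limits the precision. The sign of the embryo-in-Cy3 arrays was turned, because the 2 arrays of each embryo were anticorrelated as deposited (r from -0.912 to -0.589 in 43 of 43). The lowest r between arrays of one orientation was 0.553 with the embryo in Cy3 and 0.477 with it in Cy5. Array medians ran from -2.22 to 1.06, so from every array the median of its values on the 5558 rows without a gap was subtracted, by which whole-array shifts are lost. Between 10137 and 15618 rows were measured per array.

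An embryo's arrays were averaged, and rows with at least 7 embryos per group kept (10757). Of the table's rows, 11196 have a single symbol (11182 matched RefSeq), 190 have several and 5030 are not listed. Rows of a symbol were averaged, giving 6278 features (3433 named genes, 2845 unnamed rows). The group means were fitted with limma 3.58.1 (R 4.3.3) over all features, 2-sided, after tests on simulated data. The level of CD59 was not tested between groups; its spread and its dye difference were. Permutation tests used 100000 resamples, and figures matplotlib 3.10.9. The labels call the embryos separate samples but do not give their parents, so p-values measure the spread between embryos.

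Members, lists and tests were chosen with earlier results of these data known. Named are all measured complement genes, up to 4 called genes of each other list with the largest difference between IVF and AI, the 8 and 5 genes most like CD59, and its 10 measured neighbours. Alternatives changed the centring, normalization, dye, filter, embryos left out and blocking.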

Additional observations from a re-analysis of the deposited data

How the results depend on the processing

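The CD59 differences kept their direction in all 131 recomputed values. CD59 was chosen for being low in IVF in these embryos, so its kept direction there is a description and no support. Some alternatives cannot change a difference, such as averaging IVD 12_1 to 12_4 for IVF minus AI. Apart from leaving out single embryos, IVF minus AI ran from -2.11 to -1.67, IVD minus AI from 0.219 to 0.671 and IVF minus IVD from -2.46 to -2.13. Leaving out each embryo in turn gave -1.89 to -1.67, 0.320 to 0.468 and -2.27 to -2.08. Embryo numbers recur between groups, but the 21 pairs with the same number did not deviate together (r from -0.187 to 0.213, 3 above 0.1), so they do not pair the embryos; with the number as a replicate block the CD59 differences were -1.83, 0.48 and -2.31.

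Counts over the 30 pathway genes also moved. Higher calls in IVF against AI (4) became 1 with the deposited values as given, 1 with the embryo-in-Cy3 arrays and 2 with the replicate block. Lower calls (8) became 4 with values as given, 3 with the embryo-in-Cy5 arrays, 5 with rows measured in every embryo, 2 with the block and 5 without the 7 embryos of low Cy5 array median. In IVD against AI, higher calls (4) became 2 with quantile normalization and 7 with the embryo-in-Cy3 arrays, and lower calls (12) became 3 as given, 6 with the embryo-in-Cy3 and 19 with the embryo-in-Cy5 arrays, and 6 with the block. In IVF against IVD, higher calls (6) became 1 as given, 3 with the embryo-in-Cy3 and 16 with the embryo-in-Cy5 arrays, and lower calls (7) became 11, 13 and 3, and 4 with rows measured in every embryo. The counts are therefore not all out of the same number of genes, and the share of all features called is not given for these settings. Other causes were not tested.

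Of 684 recomputed values of named genes, 575 kept direction and call, 104 lost the call, and 5 turned: C1QB (0.063, IVF minus AI) and C1R (0.41, IVF minus IVD) with the embryo-in-Cy5 arrays, and NT5E (-0.025, IVF minus AI), EFNA5 (0.0042, IVD minus AI) and CD44 (-0.020, IVF minus AI) with the embryo-in-Cy3 arrays. The replicate block alone ended the calls of TFPI and, in IVD against AI, of CD48 and CAV1. Without the 7 embryos, which were set apart after their CD59 values had been seen and include the 2 lowest of AI, the differences in CD59 spread were 0.40 for IVF minus AI, 0.33 for IVF minus IVD and 0.074 for IVD minus AI (turned), and are no test; as given, IVF minus AI turned to -0.010. The dye difference between IVF and AI turned to -0.072 without the 7 embryos, -0.035 as given and -0.056 with all-row centring. Between IVD and AI it became 1.64 and 0.76 under the latter 2, and between IVF and IVD -1.67 and -0.82. Ratios do not show how far spots lay above background, so low signal could not be assessed.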
